A study of Mus musculus with 18 samples.

Results

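Translating ribosome affinity purification (TRAP) RNA, labelled as specific to cardiomyocytes, was compared with total RNA of the whole heart in infarcted hearts of control mice. The comparison took the 3 TRAP libraries and the 3 total RNA libraries that the labels assign to the control genotype after infarction, 6 of the 18 libraries of the series. It was described over 13267 genes tested out of 46983 in the count table. The mice were adults of 8 to 10 weeks at surgery, their infarct was made by ligating the left anterior descending coronary artery, and RNA was taken 6 weeks later. Control mice are described as wild type, and the other genotype of the study is Salv cKO, a conditional knockout. All libraries were made with the Ion Total RNA-Seq kit v2 and sequenced on an Ion Proton. The labels name neither the tag on the purified ribosomes, nor the promoter or Cre that restricts it to cardiomyocytes, nor the sex of the mice. They do not say that the libraries of a group came from separate animals, so each p-value measures a spread between libraries, which may be technical. That spread was estimated over all 12 libraries of infarcted hearts, so it includes the Salv cKO libraries. The 18 libraries include no total RNA from sham hearts, so the comparison could not be made without infarction.

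In TRAP, a ribosomal protein made with an affinity tag in a chosen cell type is pulled down from tissue lysate together with the ribosomes and the mRNA bound to them. Cytosolic mRNA of the tagged cells is recovered, while RNA that is kept in the nucleus, RNA read by the separate ribosomes inside mitochondria, and RNA of untagged cells are left behind to the extent that the purification works. In the heart, cardiomyocytes hold the sarcomeres and most of the mitochondria, and fibroblasts, endothelial cells, pericytes and macrophages make up most of the other cells. After an infarct, fibroblasts deposit collagen in the scar and the surviving cardiomyocytes enlarge. In these bulk libraries, fewer cells of a type and less RNA of a gene per cell cannot be told apart.

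TRAP RNA and total RNA differed in most genes. Among abundant genes with a known name, those highest in TRAP RNA encoded mainly subunits of the nuclear-encoded respiratory chain and of the cytosolic ribosome, and those lowest were mainly transcripts of the mitochondrial genome and RNAs retained in the nucleus. Of 13267 genes, 8923 were called (adjusted p under 0.05, edgeR quasi-likelihood test), which is 67.3% of those tested. In TRAP RNA, 4247 genes (32%) were higher and 4676 (35.2%) were lower. The libraries of the groups did not overlap for 9532 genes (71.8%). The fitted difference of called genes was beyond 2-fold for 3354 higher and 3783 lower, and beyond 16-fold for 320 higher and 361 lower. A test against a 2-fold change called 2523 higher and 2614 lower. The TRAP libraries held no count for 109 of those 361 genes, and the total RNA libraries none for 10 of the 320, so their fitted folds are no measure of size. The median log2 difference over all genes was -0.15, with quartiles at -1.30 and 1.06. Scaling by library totals in place of TMM moved that median by -0.72 on the log2 scale and the calls to 2655 higher and 6967 lower. Of genes named here, the higher calls of Adrb1, Ankrd1, Atf4, Atp2a2, Eef1a2, Fabp4, Ftl1, Hspa5, Myh6 and Tbx5 were then lost, at 0.08 to 0.49, and Acadm, Csf1r, Ctgf, Dcn, Ighm, Lyz2, Ndufs1, Nppb, Per1, Rpl10, Rpl15, Rpl23a and Tra2b were then called lower, at -0.76 to -2.17. Values given without a p were called unless marked otherwise. Levels are TMM-scaled CPM (counts scaled to a common library size), and differences are log2 values of TRAP over total RNA. Shares of counts are of all counts of a library, without TMM scaling, so their scale is not that of the differences. Mitochondrial genome counts, on average 24.4% in total RNA and 0.256% in TRAP RNA, lower the shares of other genes more in total RNA.

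**Figure D1:**
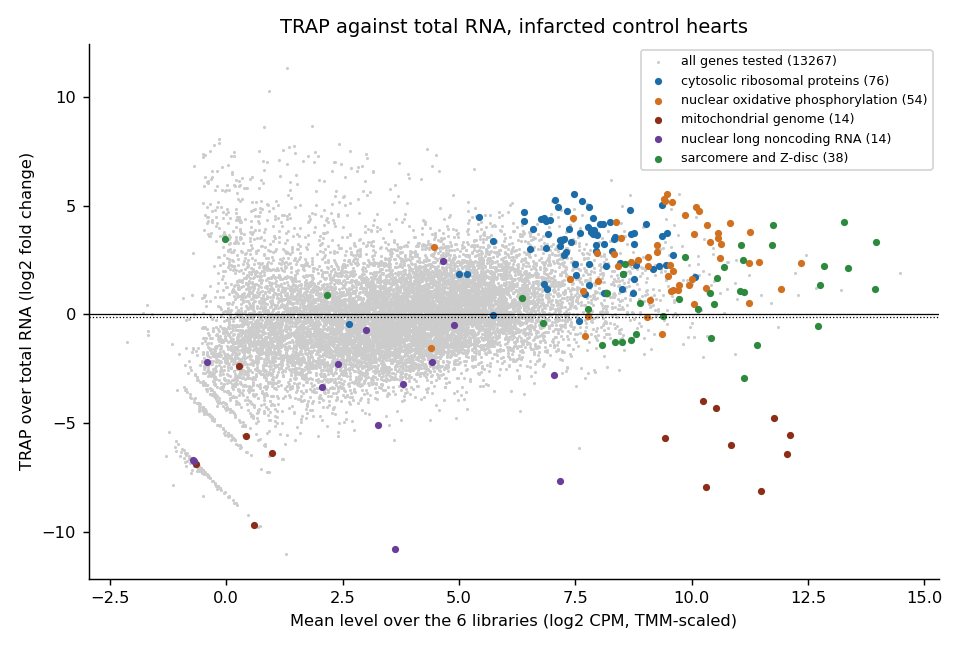
Log2 fold change of TRAP over total RNA (vertical axis) against the mean level of each gene over the 6 libraries in log2 CPM (horizontal axis), with 5 gene lists in color, the solid line at 0 and the dotted line at the median of all genes. Ribosomal protein and nuclear respiratory chain genes lie mostly above 0 and mitochondrial genome transcripts all below it, and the oblique bands at the lower left are genes with few or no counts in TRAP RNA.

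Among abundant genes with a known name, the 15 with the largest difference toward TRAP RNA were Ndufa3, Scand1, Pttg1, Ndufb7, Rps29, Ndufa2, Ndufs6, Uqcrq, Rpl37, D8Ertd738e, Rps10, Ndufa5, Cox7a1, Timm13 and Mrpl54. Ndufa3, an accessory subunit of respiratory complex I, was at 38.8, 33.5 and 35.9 CPM in total RNA and at 2583, 2684 and 2562 in TRAP RNA (log2 difference 6.17, SE 0.52, adjusted p = 1.91e-07). Of these 15 genes, 7 encode subunits of respiratory complexes I, III or IV and 3 encode proteins of the cytosolic ribosome. Timm13 belongs to the protein import machinery of mitochondria and Mrpl54 to the mitochondrial ribosome. Pttg1, the securin that restrains separase before sister chromatids part, was uneven, at 150.1, 119 and 15.3 CPM in TRAP RNA and 0.858, 2.35 and 2.61 in total RNA (log2 difference 5.75, SE 1.19, adjusted p = 0.0024). The 15 with the largest difference toward total RNA included Xist, mt-Co1, mt-Nd5, Malat1, mt-Cytb, mt-Nd2, Pkd1, mt-Nd6, mt-Nd1, Firre, Usp9x, Leng8, mt-Nd4 and Cdc42bpb. Of the 15, 7 are messenger RNAs of the mitochondrial genome and 3 are long noncoding RNAs of the nucleus.

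The total RNA libraries held 24135877, 6451570 and 9168027 counts and the TRAP libraries 6706118, 6449748 and 5916285. By library total, 3 counts, taken as the floor, stand for 0.124 to 0.507 CPM. This floor and the counting intervals hold only the error of counting. Spearman correlations of the levels across genes were 0.962 to 0.979 between total RNA libraries, 0.965 to 0.975 between TRAP libraries and 0.704 to 0.781 between the fractions. Total RNA library 2 stood apart in its share of mitochondrial genome counts, 15.8% against 29% and 28.4% in the other total RNA libraries. Without it, 8619 genes were called, and leaving out each library in turn gave 8364 to 8695. The 10 most counted genes took 26.8% of the counts in total RNA, led by mt-Co1, mt-Cytb and mt-Nd1. In TRAP RNA the 10 most counted took 20% and were Myl2, Mb, Tnni3, Myh6, Tnnt2, Mybpc3, Slc25a4, Tcap, Atp2a2 and Atp5b, which are proteins of the sarcomere, of oxygen storage, of calcium uptake and of ATP synthesis and export.

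Genes of the translation machinery were mostly higher in TRAP RNA. Of 76 cytosolic ribosomal protein genes tested, 73 were higher and 0 lower, with a median log2 difference of 3.40, against 32% higher among all genes tested. Their share of all counts was 0.972% to 1.02% in total RNA libraries and 4.37% to 5.50% in TRAP libraries. Rps10, a protein of the small subunit, was at 40.6, 25.2 and 33.8 CPM in total RNA and 1005, 1275 and 1468 in TRAP RNA. Every TRAP library lay far above every total RNA library (log2 difference 5.23, SE 0.26, adjusted p = 7.17e-13). Rpl10a, the large-subunit protein that carries the tag in many TRAP mouse lines, was at 73.5, 59.2 and 76.7 CPM in total RNA and 174, 183 and 192 in TRAP RNA (log2 difference 1.39, SE 0.19, adjusted p = 1.32e-06). The 3 genes not called were Rpl10, Rpl15 and Rpl23a, at -0.33, -0.03 and -0.47. With the trends of the difference with transcript length and GC content across all genes removed, Rpl10 was lower at -1.66 and Rpl23a at -2.67, and summed with near-identical copies they were at 0.03 and 0.0022, not called. Ribosomal protein transcripts are short, with a median length of 882 bases against 2945 for all genes tested, and with these trends removed their median difference was 1.66. Of the 76, 61 were then higher and 4 lower, and Rpl10a was at -0.75. Translation factors, whose median length of 2514 bases was close to that of all genes, had 20 of 31 higher and 7 lower. Their median was 1.02, and 1.1 with the trends removed. Eif5b, which joins the ribosomal subunits, differed by 4.19 and Eef1d, an exchange factor of elongation factor 1, by 3.99. Eif4a2, an RNA helicase of initiation, differed by -2.65, and Eef1a1, the main elongation factor outside muscle, by -1.59. Eef1a2, the form of that factor in muscle, differed by 1.02 (0.06 with the trends removed) and Eef2, the translocase of elongation, by 1.87.

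Messenger RNAs of the translation machinery often start with a run of pyrimidines, the 5′ terminal oligopyrimidine motif through which their translation is regulated. The RefSeq start sites (GRCm38.p6) held an entry for 57 of the 78 ribosomal protein genes. A C followed by at least 6 C or T letters, within 5 bases of a start and on the gene's strand, was present at 23 of these 57 genes (40.4%) and at 7.64% of all 27025 genes with a start. The 30 bases from 10 before to 20 after the start are shown for 3 genes with such a run, in capitals, and for 2 without one. They were chosen to set a ribosomal protein gene beside a translation factor and the muscle and respiratory genes with large differences.
Rps10 (chr17:27635225-27635254, minus strand): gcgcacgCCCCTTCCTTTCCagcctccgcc
Eef1a1 (chr9:78481705-78481734, minus strand): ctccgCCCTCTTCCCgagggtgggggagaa
Tnni3 (chr7:4522509-4522538, minus strand): ctttgcacacggCTCCCCTCacaccctgtt
Rpl37 (chr15:5116603-5116632, plus strand): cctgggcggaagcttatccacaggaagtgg
Ndufa3 (chr7:3617363-3617392, plus strand): agagagctccgctccttgtcgccgccaaga

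Ribosomal protein genes were high with and without the run at a RefSeq start. Rps10 with a run and Rpl37 without one differed by 5.23 and 5.24, and Eef1a1 with a run by -1.59. Among ribosomal protein genes the median difference was 3.76 with the run (23 genes) and 3.40 without it (33 genes). Among translation factors it was -1.59 with the run (3 genes, Eef1a1 among them) and 1.02 without it (19 genes). Among tested genes of neither translation list it was -0.21 with the run (800 genes) and -0.16 without it (8784 genes). A match is a description of letters, and starts other than those in RefSeq were not examined. A gene without a match may have the motif at another start, so these medians do not compare genes with and without the motif.

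The respiratory chain is built from proteins of both genomes, and the fractions separated their transcripts. Of 54 nuclear genes of oxidative phosphorylation 49 were higher in TRAP RNA and 3 lower, with a median of 2.41, while all 14 tested transcripts of the mitochondrial genome were lower, with a median of -5.87. Of those 14, 2 were at 0 counts in TRAP RNA, and with these at their bounds the median was -5.66. Within complex I, 19 of 20 nuclear subunits were higher (median 2.83) and 6 of 6 mitochondrial ones lower (median -5.63). In complex IV, 9 of 9 nuclear subunits were higher (median 3.50) and 3 of 3 mitochondrial ones lower (median -6.38). In complex V, 12 of 13 nuclear subunits were higher (median 2.34) and both tested mitochondrial ones lower. Complex II, which is wholly nuclear-encoded, had 3 of 4 higher, and Sdhd, its membrane anchor, was lower (log2 difference -0.998, SE 0.23, adjusted p = 5.53e-04). Cox7a1, the heart form of a complex IV subunit, was at 138, 86.9 and 169 CPM in total RNA and 5391, 4502 and 4153 in TRAP RNA (log2 difference 5.16, SE 0.44, adjusted p = 3.35e-08). The TRAP libraries lay close together and far above all total RNA libraries. mt-Co1, the catalytic subunit of complex IV, was at 63944, 32246 and 51439 CPM in total RNA and 151, 178 and 199 in TRAP RNA (log2 difference -8.12, SE 0.36, adjusted p = 2.47e-13). The order was reversed, with no overlap.

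Mitochondrial genome symbols took 29%, 15.8% and 28.4% of the counts in the total RNA libraries and 0.223%, 0.203% and 0.342% in the TRAP libraries. The means were 24.4% ± 7.47 (SD, n = 3) and 0.256% ± 0.0754 (SD, n = 3). The exact two-sided permutation test gave p = 0.1, the smallest that 3 libraries against 3 can give. mt-Rnr1 and mt-Rnr2, the ribosomal RNAs inside mitochondria, differed by -3.99 and -4.33, and mt-Nd5 by -7.97. mt-Atp6 had 651 counts over the total RNA libraries and 0 over the TRAP libraries, which against a floor of 3 counts over the group is at least 65.9-fold lower. Nuclear genes of oxidative phosphorylation are short, with a median length of 992 bases, and their median was 1.27 with the length and GC trends removed, when 38 were higher and 5 lower. The mitochondrial transcripts had a median length of 956 bases and a median of -4.74 after the same step, with 12 of 14 still lower. The lowest nuclear member was Atp5g2, a subunit c gene of ATP synthase that has near-identical copies, at -1.55, or -0.28 and not called when summed with them. Cox4i1 of complex IV was at 3.81, Atp5a1 of complex V at 1.15, and Ndufs1, the largest subunit of complex I, at -0.10 (not called).

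**Figure D2:**
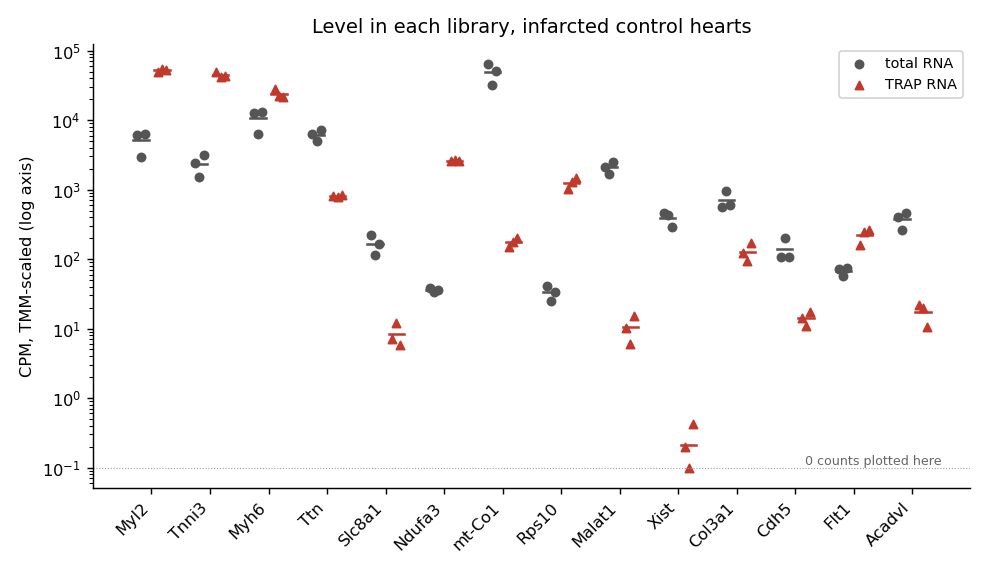
Level of 14 genes in CPM on a log axis, with 1 point per library (circles, total RNA; triangles, TRAP RNA; n = 3 each), a bar at the group mean and 0 counts drawn at the dotted line. For each of the 14 genes the libraries of the groups do not overlap, with Myl2, Tnni3, Myh6, Ndufa3, Rps10 and Flt1 higher in TRAP RNA and the other 8 lower.

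Sarcomere genes, which only muscle cells express at high level, were mostly higher in TRAP RNA, and the longest of them was lower. Of 38 sarcomere and Z-disc genes 25 were higher and 9 lower, with a median of 0.98, and their share of counts was 7.73% to 9.20% in total RNA libraries and 18.3% to 19.1% in TRAP libraries. Tnni3, cardiac troponin I, was at 2412, 1526 and 3105 CPM in total RNA and 48701, 41129 and 42499 in TRAP RNA (log2 difference 4.23, SE 0.31, adjusted p = 7.92e-11), which is 18.8-fold. Every TRAP library was above every total RNA library. Myl2, the ventricular regulatory light chain, was at 6057, 2924 and 6406 CPM in total RNA and 48622, 54484 and 52732 in TRAP RNA (log2 difference 3.34, SE 0.30, adjusted p = 2.52e-09). Tcap, the titin cap of the Z-disc, differed by 4.10, Tnnt2 by 2.12, Actn2 by 2.48 and Mybpc3 by 2.23. Ttn, the giant spring protein and the longest transcript of the list at 106824 bases, went the other way. It was at 6248, 5049 and 7147 CPM in total RNA and 818, 778 and 849 in TRAP RNA (log2 difference -2.92, SE 0.25, adjusted p = 1.04e-09), with no overlap. Across the 38 genes the Spearman correlation of the difference with transcript length was -0.68, and -0.18 once the length and GC trends of all genes were removed, when the median was 0.69. These genes share libraries and are not independent.

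The myosin heavy chains divided. Myh6, the fast adult form, was at 12689.9, 6234 and 13289 CPM in total RNA and 28457, 21992 and 21745 in TRAP RNA (log2 difference 1.16, SE 0.34, adjusted p = 0.00468). Myh7, the slow form that increases in diseased mouse hearts, was at 6978, 3014 and 3935 in total RNA and 1803, 1287 and 2060.1 in TRAP RNA (log2 difference -1.44, SE 0.42, adjusted p = 0.00726). The transcripts are nearly equal in length, 6113 and 6230 bases. Mhrt, an antisense long noncoding RNA of the Myh7 locus, was higher in TRAP RNA (log2 difference 2.44, SE 0.29, adjusted p = 2.75e-07), and at 0.36 and not called with the trends removed. It covers 27% of the last 300 exonic bases of Myh7, and without a stated strand setting reads of the gene and its antisense partner cannot be told apart. Actc1, cardiac actin, was at -0.52 (adjusted p = 0.029). Among 16 genes of cardiac stress, 6 were higher and 3 lower. Nppa, the atrial natriuretic peptide, was at 4237, 948 and 2739 CPM in total RNA and 567, 559 and 879 in TRAP RNA (log2 difference -1.98, SE 0.78, adjusted p = 0.0485), with wide spread in total RNA. Nppb, the B-type peptide, was at -0.72 (adjusted p = 0.242) and the groups overlapped. It was called lower in 3 alternatives, at -0.72 with the 6 control libraries alone (adjusted p = 0.0337), -1.52 with library totals (adjusted p = 0.044) and -2.23 with the trends removed (adjusted p = 0.0104). Ankrd1, a stretch-responsive muscle protein, was at 0.87. The call of Nppa was lost without any one of 5 of the 6 libraries, at adjusted p of up to 0.149 (without total RNA library 1). That of Actc1 was lost at -0.43 to -0.54 without total RNA library 1 or any TRAP library, and that of Ankrd1 at 0.67 without total RNA library 3 and 0.61 without TRAP library 3. Mt1 and Mt2, metal-binding metallothioneins, were at 4.45 and 3.57.

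Calcium handling genes split within the list. Of 18 tested, 7 were higher and 6 lower with a median of 0.05, near the shares of all genes, and with length and GC trends removed 13 were higher and 3 lower, with a median of 0.94. Trdn, the triadin that anchors the calcium release complex, was at 243, 209.9 and 206 CPM in total RNA and 1869, 1931 and 2763 in TRAP RNA (log2 difference 3.31, SE 0.22, adjusted p = 2.51e-11). Slc8a1, the sodium-calcium exchanger, was at 223, 116 and 163 in total RNA and 7.04, 11.9 and 5.80 in TRAP RNA (log2 difference -4.34, SE 0.31, adjusted p = 2.35e-10). Both groups were separate for each gene, in opposite directions. Atp2a2, the calcium pump of the sarcoplasmic reticulum, was at 1.13 and Hrc, a calcium-binding protein of its lumen, at 2.79. Ryr2, the calcium release channel, was at 0.20 (adjusted p = 0.429) and -0.49 when scaled by library totals (adjusted p = 0.0326), and at 1.20 with the trends removed (adjusted p = 3.88e-05). Pln, the pump's inhibitor, was at -0.58 (adjusted p = 0.0392), and at 0.73 with the trends removed. Its call was lost without total RNA library 1 (-0.44) or any TRAP library (-0.57, -0.60 and -0.58). Of 24 ion channel and gap junction genes 5 were higher and 10 lower. Kcnk3, a background potassium channel, was at 3.01 and Kcnj11, the pore of the ATP-sensitive potassium channel, at -3.50. Gja1, the main ventricular gap junction protein, was at -0.71 (adjusted p = 0.00472) and at -0.01 and not called with the trends removed.

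Genes of cell attachment gave no common direction. In the dystrophin complex and costamere 8 of 17 were higher and 7 lower. Cav3, the muscle caveolin, was at 2.98. Vcl, vinculin, was at 52.3, 26.4 and 43.7 CPM in total RNA and 1.56, 3.23 and 0.430 in TRAP RNA (log2 difference -4.53, SE 0.43, adjusted p = 2.08e-08), and its 3′ end lies under exons of Ap3m1. Sntb1 had 76 counts in total RNA and 0 in TRAP RNA, at least 7.69-fold lower against 3 counts over the group. In the intercalated disc 2 of 10 genes were higher and 6 lower. Ctnnb1, beta-catenin, was at -3.16, Tjp1, a scaffold of tight and gap junctions, at -2.53, and Pkp2, a desmosome protein, at 0.69, which with library totals was -0.0084.

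Fuel metabolism genes were mixed. Of 26 genes of fatty acid uptake and oxidation 12 were higher and 9 lower. Etfb, which passes electrons from fatty acid oxidation to the respiratory chain, was at 48.3, 68.9 and 79.8 CPM in total RNA and 2099.5, 1882 and 2176 in TRAP RNA (log2 difference 4.97, SE 0.25, adjusted p = 8.55e-13). Acadvl, the very long chain acyl-CoA dehydrogenase of the same pathway, was at 406, 265 and 463 in total RNA and 21.9, 19.97 and 10.5 in TRAP RNA (log2 difference -4.43, SE 0.28, adjusted p = 2.47e-11). The libraries did not overlap for either gene, and the 3′ end of Acadvl lies under exons of Dvl2. Acaa2, the last enzyme of the cycle in mitochondria, was at 3.08, Fabp3, the heart fatty acid binding protein, at 2.16 (0.15 and not called with the trends removed), and Acadm at -0.06 (adjusted p = 0.842). Cpt1b, the muscle carnitine palmitoyltransferase, had 155 counts in total RNA and 1 in TRAP RNA, a ratio of 47.1 (95% counting interval 8.32 to 1871). In the citric acid cycle 8 of 16 were higher and 4 lower, between Idh3g at 1.90 and Idh3a at -1.17, subunits of the same enzyme. In glycolysis and glycogen metabolism 13 of 22 were higher and 6 lower. Pgam2, the muscle phosphoglycerate mutase, was at 4.12, and Pgam1, its form in other tissues, at -3.03 or -3.04 when summed with its near-identical copy. Among antioxidant genes 13 of 22 were higher and 7 lower, with Sod1 at 3.32, Gpx1 at 3.36, Gclc at -2.61 and Nfe2l2, the regulator of the response, at -2.21.

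Long noncoding RNAs that stay in the nucleus were mostly lower in TRAP RNA. Of 14 nuclear long noncoding RNAs tested 13 were lower and 1 higher, with a median of -3.00, or -2.84 with 2 genes at 0 counts set to their bounds and -2.05 with length and GC trends removed. Their share of counts was 0.370% to 0.413% in total RNA libraries and 0.0123% to 0.0149% in TRAP libraries. Of all genes tested 32% were higher and 35.2% lower. Noncoding RNAs not chosen for staying in the nucleus lay nearer to that. Of 148 annotated as long intergenic noncoding RNAs 39 were higher and 56 lower (median -0.27). Of 135 annotated as antisense 53 were higher and 40 lower (median 0.16). Malat1, a nuclear speckle RNA, was at 2138, 1680.4 and 2484 CPM in total RNA and 10.2, 6.05 and 15.04 in TRAP RNA (log2 difference -7.66, SE 0.43, adjusted p = 3.58e-11). Xist, which coats the inactive X chromosome of females, had 19986 counts in total RNA and 3 in TRAP RNA, a ratio of 2023 (95% counting interval 692 to 9810). Every total RNA library was above every TRAP library for both. Neat1, the scaffold of paraspeckles, was at -2.79, and Firre at -5.08. Meg3, of an imprinted cluster, had 75 counts in total RNA and 0 in TRAP RNA, at least 7.59-fold lower against 3 counts over the group. Mhrt, given above, was the 1 member higher. All 5 tested imprinted and muscle noncoding RNAs were lower. Of 4 small structural RNAs tested 1 was higher and 2 lower, with Rn7sk, a nuclear regulator of transcription elongation, at -1.84 and Rpph1, the RNA of ribonuclease P, at 3.54. With the trends removed 0 of these 4 were higher and 2 lower, and Rpph1 was at 0.48 (adjusted p = 0.639). The call of Rn7sk was lost without total RNA library 3 (-1.53), TRAP library 2 (-1.84) or TRAP library 3 (-1.56). Rmrp was too low to be tested. Host genes of small nucleolar RNAs, which are spliced and reach the cytoplasm, were higher in 8 of 14 and lower in 2 (median 1.01), beside 32% and 35.2% of all genes. With the trends removed 5 of 13 were higher and 2 lower (median 0.27). Snhg8 was at 3.27 and Gas5, a host transcript whose level rises when translation is blocked, at 1.78, or -0.47 with the trends removed. Splicing factor genes, many of which make transcripts that are retained in the nucleus or degraded, had 4 of 30 higher and 21 lower (median -1.39). Tra2b, which has near-identical copies, was at -0.22 (not called), and at 0.80 with the trends removed. Srsf2 was at -3.83, Clk1, a kinase of splicing factors, at -3.61, and Luc7l3 at 2.48. With the trends removed 9 of these 30 were higher and 16 lower.

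Genes known for regulated translation did not share a direction. Of 20 genes with upstream open reading frames, 7 were higher and 6 lower, close to the shares of all genes. With the length and GC trends removed 2 of these 20 were higher and 7 lower. Of all 12815 genes 3900 were then higher and 3680 lower. Atf4, the stress regulator translated when initiation is limited, was at 65.7, 69.3 and 74.7 CPM in total RNA and 128, 104 and 135 in TRAP RNA (log2 difference 0.81, SE 0.21, adjusted p = 0.00156), and at 0.15 and not called with the trends removed. Ddit3, a target of Atf4 with an upstream frame of its own, was at 1.72, and at -0.24 with the trends removed. Among 6 genes with iron regulatory elements, Fth1 and Ftl1, the ferritin chains whose translation is blocked at low iron, were at 1.55 and 0.998, and Tfrc, the transferrin receptor whose mRNA is stabilised at low iron, at -1.66. With the trends removed Ftl1 turned to -0.98 and Tfrc was at -0.28 (adjusted p = 0.521).

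Genes of protein turnover and mitochondrial translation were mostly higher. Of 30 genes of the mitochondrial ribosome 23 were higher and 0 lower (median 1.97, or 1.13 with the trends removed), with Mrpl51 at 4.01 and Mrpl13 at 3.84. Of 27 proteasome genes 20 were higher and 1 lower (median 1.68, or 1.33). Psmb5, a catalytic subunit, was at 19.2, 16.03 and 21.6 CPM in total RNA and 294, 263 and 262 in TRAP RNA (log2 difference 3.85, SE 0.19, adjusted p = 7.09e-13). Psmb7, another catalytic subunit, was the 1 lower, at 54.4, 44.2 and 58.2 in total RNA and 5.47, 5.04 and 5.59 in TRAP RNA (log2 difference -3.28, SE 0.23, adjusted p = 5.27e-11), and its 3′ end lies under exons of Nek6. Cytosolic chaperones had 9 of 16 higher and 2 lower, with Hsp90aa1 at 3.30 and Bag3 at 2.33. Genes of the unfolded protein response had 10 of 22 higher and 9 lower. Its sensors Ern1 and Eif2ak3 were at -2.60 and -3.35, and the chaperones Hspa5 and Creld2 at 0.96 and 2.08. In mitochondrial quality control 9 of 20 were higher and 4 lower, with Clpp, a matrix protease, at 3.81 and Park2, the ubiquitin ligase parkin, at 0.15 (adjusted p = 0.675).

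**Figure D3:**
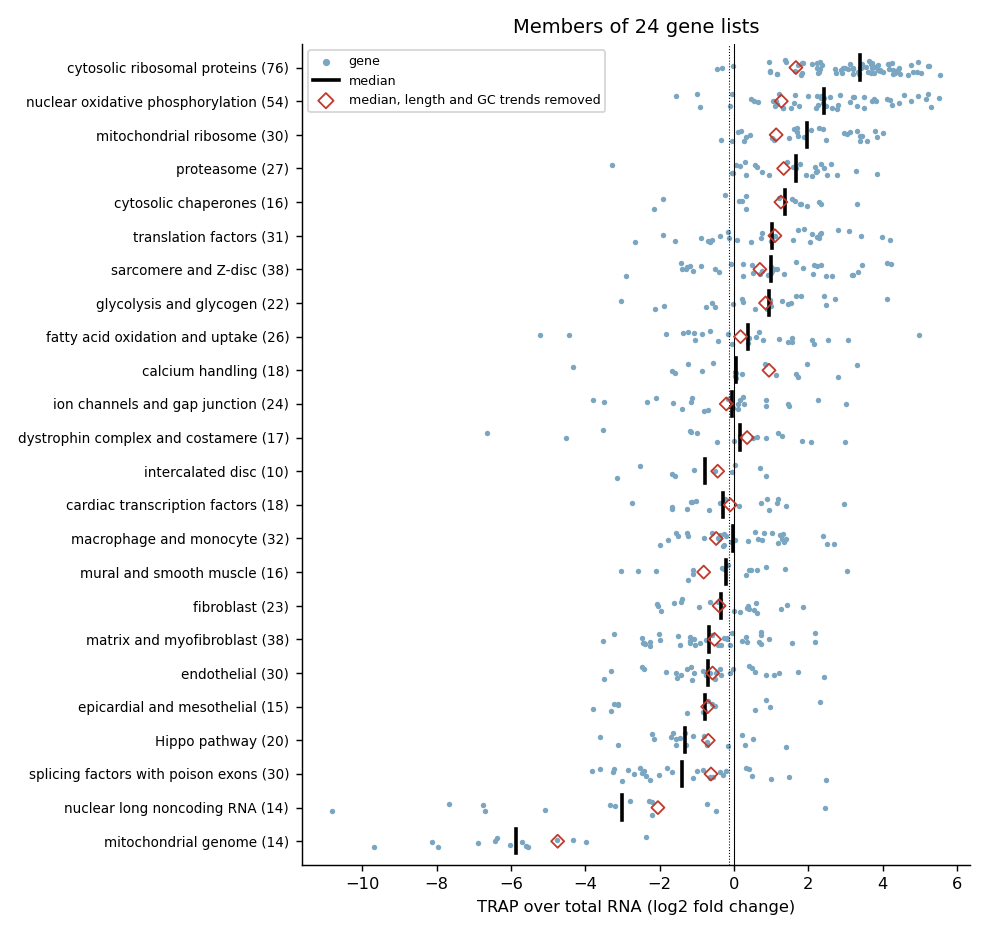
Log2 fold change of TRAP over total RNA for the members of 24 gene lists (points; number tested in parentheses), with the median as a black bar and the median after removal of length and GC trends as an open diamond. The solid line is 0 and the dotted line the median of all genes. Medians run from 3.40 for cytosolic ribosomal proteins to -5.87 for the mitochondrial genome, and the diamonds of the cytosolic ribosomal proteins (1.66) and nuclear oxidative phosphorylation (1.27) lie nearer to 0 than their bars.

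Markers of other cell types remained present in TRAP RNA. The counts that follow stand beside 32% higher and 35.2% lower among all genes tested, and differences between lists were not tested. Of 23 fibroblast markers 4 were higher and 6 lower, of 38 matrix and myofibroblast genes 4 and 19, of 30 endothelial markers 5 and 16, and of 16 mural markers 3 and 5. Of 15 epicardial markers 1 was higher and 6 lower, of 32 macrophage markers 11 and 5, and of 13 lymphocyte and other leukocyte markers 5 and 4. The share lower was below that of all genes in the fibroblast and macrophage lists, and near it in the mural (31.25%) and leukocyte (30.8%) lists. With the trends removed 6 of 23 fibroblast, 8 of 16 mural, 13 of 32 macrophage and 5 of 13 leukocyte markers were lower. Of all genes 3680 of 12815 were then lower. Shares of all counts, which are not TMM-scaled, overlapped for fibroblast markers (0.366% to 0.638% in total RNA, 0.421% to 0.506% in TRAP RNA). So did those of macrophage markers (0.0925% to 0.159% and 0.0826% to 0.106%). The shares did not overlap for matrix genes (0.427% to 0.833% and 0.237% to 0.335%), endothelial markers (0.185% to 0.271% and 0.106% to 0.148%) and mural markers (0.103% to 0.192% and 0.0351% to 0.0416%). Among the defining markers tested, Wt1 and the erythroid gene Alas2 were each at 0 in 1 TRAP library and no other was at 0 in any. Cd3e, Cd79a, Adipoq, Plin1, Sox10, Sftpc and Scgb1a1 were too low to be tested. The part of RNA from other cells in the differences of other genes was not tested.

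Col3a1, a collagen of scar tissue, was at 554, 958 and 595 CPM in total RNA and 121, 93.2 and 172 in TRAP RNA (log2 difference -2.45, SE 0.35, adjusted p = 1.19e-05). The groups did not overlap, though the TRAP level stayed well above the floor. Postn, made by activated fibroblasts, was at -2.40, Pdgfra, a fibroblast receptor, at -1.96, and Tcf21, a fibroblast transcription factor, at -2.06. Col1a1 was at 64.7, 139 and 90.2 in total RNA and 193, 98.04 and 191 in TRAP RNA (log2 difference 0.72, SE 0.46, adjusted p = 0.191), and Dcn at -0.44 (adjusted p = 0.182). Endothelial markers opposed each other. Cdh5, the endothelial cadherin, was at 109, 204 and 106 CPM in total RNA and 14.3, 10.9 and 17.4 in TRAP RNA (log2 difference -3.30, SE 0.27, adjusted p = 7.21e-10), whereas Flt1, a receptor for vascular growth factor, was at 71.3, 57.9 and 73.6 and 161, 244 and 263 (log2 difference 1.72, SE 0.21, adjusted p = 1.84e-07). Pecam1 was at -0.84, Cldn5, a tight junction protein, at 2.41 (0.86 and not called with the trends removed), and Fabp4, a fatty acid binding protein of capillaries, at 0.86 (0.15 and not called with library totals). Rgs5 and Acta2, markers of pericytes and smooth muscle, were at -2.59 and -1.23.

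Among 32 macrophage markers the Spearman correlation of the difference with transcript length was -0.61. The short Tyrobp and Aif1 were at 2.68 and 2.504, and the longer Adgre1 and Ccr2 at -1.98 and -1.77. Lyz2, Csf1r and Cd68 were at -0.26, -0.26 and 0.64 and were not called. With the length and GC trends removed 2 macrophage markers were higher and 13 lower (median -0.48), Tyrobp was at -0.05, Aif1 at 0.84 (adjusted p = 0.0785) and Ccr2 at -0.28 (adjusted p = 0.569). Cd68 was then at -0.94 and Lyz2 at -0.80, both called, and Cd68 was called higher (0.83) without TRAP library 2. Ptprc, the pan-leukocyte marker, was at -1.98 and Wt1, an epicardial factor, at -3.31. The immunoglobulin genes Igkc and Ighm were at -0.83 and -1.05 and not called. With the trends removed Igkc was at -2.99 (adjusted p = 0.036), and Ighm was called lower in 6 alternatives at -0.91 to -1.78, among them without total RNA library 1 (-1.44). Of 13 complement and MHC class I genes 6 were higher and 3 lower. Erythroid genes made up 0.00753% to 0.0384% of counts in total RNA libraries and 0.0195% to 0.0337% in TRAP libraries, with Hbb-bs, a beta globin gene, at 0.66 (not called), or -1.64 with the trends removed and 1.15 (called) without total RNA library 2. None of 9 lung and airway markers reached the level needed for testing.

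Of 20 genes of the Hippo pathway, which restrains growth through the coactivator Yap1, 1 was higher and 14 lower, beside 32% and 35.2% of all genes. Their median was -1.32, or -0.69 with the trends removed, when 4 were higher and 10 lower. Sav1, the adaptor of the pathway's kinases, was at 24.3, 22.1 and 18.99 CPM in total RNA and 8.99, 7.67 and 5.59 in TRAP RNA (log2 difference -1.55, SE 0.27, adjusted p = 2.74e-05). Lats1, a kinase of Yap1, was at -3.61, Yap1 itself at -0.73 (adjusted p = 0.00429), or -0.36 with the trends removed (adjusted p = 0.139), and Amotl1 at 1.39. Of 21 YAP target genes 3 were higher and 9 lower, and Ctgf was at -1.40 (not called). Among 18 cardiac transcription factors 7 were higher and 8 lower. Nkx2-5 was at 18.8, 16.1 and 29.6 in total RNA and 163, 188 and 149 in TRAP RNA (log2 difference 2.95, SE 0.23, adjusted p = 2.22e-10), and Gata4 at 117, 84.02 and 130.4 and 37.5, 38.1 and 28.6 (log2 difference -1.67, SE 0.20, adjusted p = 1.85e-07). For both of these cardiac transcription factors the groups were separate, in opposite directions. Tbx20 was at -2.74 and Tbx5 at 0.95.

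The next 5 lists are likewise read beside 32% higher and 35.2% lower of all genes. Of 16 circadian clock genes 0 were higher and 8 lower, with Per2 at -3.47, Per3 at -2.77 and Per1 at -0.33 (not called). Of 27 cell cycle genes 3 were higher and 11 lower, with Ccnd1 at -2.72, Ccnd2 at 1.42, and Mki67 at 0.36 (adjusted p = 0.745) and overlapping groups. Adrenergic and cyclic AMP genes had 7 of 17 higher and 5 lower, with the regulatory subunit Prkar2a at 2.09 and the beta receptor Adrb1 at 1.05. Adrb1 was not called with the trends removed (0.60, adjusted p = 0.0887). In transforming growth factor beta and angiotensin signalling 5 of 16 were higher and 7 lower, with the receptors Tgfbr1 and Tgfbr2 at -2.42 and -2.75 and angiotensinogen, Agt, at 3.76. Immediate early genes had 6 of 21 higher and 4 lower, with Ier2 at 2.35, Myc at -3.30, Egr1 at 0.26 (not called) and Fos at 0.80 (adjusted p = 0.265).

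Transcript length and base composition moved with the difference over the whole table. Of the genes tested, 96.6% had a transcript in GENCODE M21. The Spearman correlation of the difference across genes was -0.38 with transcript length and 0.39 with GC content, and the pair correlated at -0.22. In the shortest of 10 groups by length (median 772 bases) the median difference was 2.09, with 68.5% higher. In the longest group (median 7926 bases) it was -1.04, with 58% lower. By GC content the medians ran from -1.41 in the lowest of 10 groups to 0.88 in the highest. With both trends removed library by library, 7580 genes were called, 3900 higher and 3680 lower. The part of RNA fragmentation, of size selection and of the purification in these trends was not tested.

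Genes whose 3′ ends lay wholly under another gene on the opposite strand were more often lower in TRAP RNA. Among 408 protein-coding genes whose last 300 exonic bases were all covered by exons of an opposite-strand gene the median was -1.26 and 59.6% were lower. Among 10723 with no cover there the median was -0.14 and 34.9% were lower, and among 771 with part cover it was -0.17 and 36.7%. A fitted difference below -4 was found in 13.5% of the fully covered genes and 1.62% of the uncovered ones. For the first 300 exonic bases the covered genes (323) had a median of -0.19 and the uncovered (10371) of -0.20. There were 233 nuclear protein-coding genes called lower with a fitted difference below -4. Of these, 54 (23.2%) had such a covered 3′ end, against 3.43% of all protein-coding genes tested. They include genes named above: Acadvl (covered by Dvl2), Vcl (Ap3m1), Pkd1 (Tsc2) and Cdc42bpb (A230087F16Rik). Leng8 was covered over 87.7% of these bases (Leng9). Among genes with smaller differences, Srsf2 (Mettl23), Psmb7 (Nek6), Ctnnb1 (Ulk4), Ccnd1 (LTO1) and Sav1 (Atl1) were covered over all 300. How reads on opposite strands were counted is not known from the labels, and its part in these values was not tested.

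**Figure D4:**
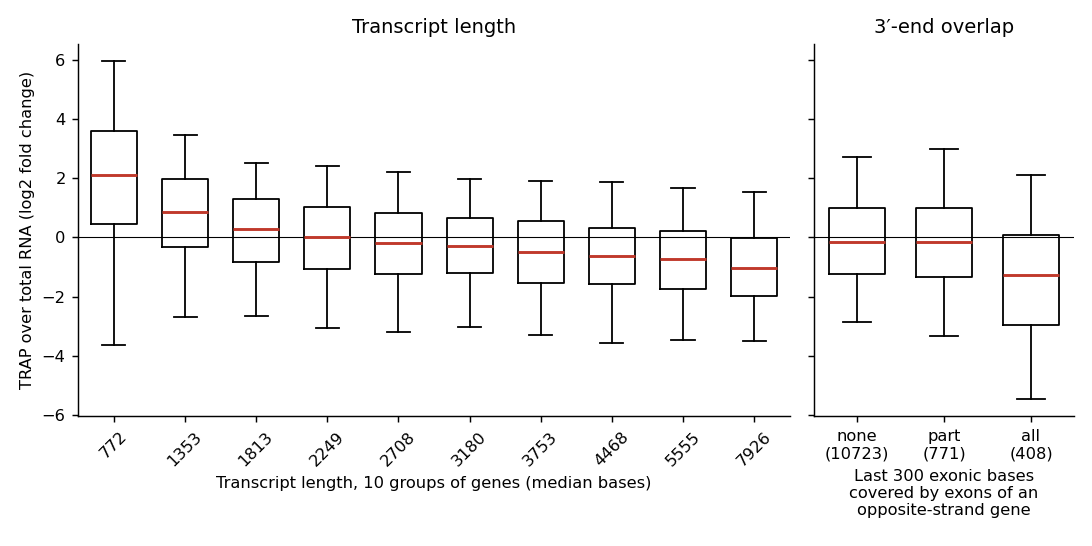
Log2 fold change of TRAP over total RNA by transcript length, in 10 groups of genes from the shortest to the longest (left), and by cover of the last 300 exonic bases of protein-coding genes by opposite-strand exons (right; number of genes in parentheses). Boxes span the quartiles with the median in red and whiskers reach the 5th and 95th percentiles. Medians fall from 2.09 to -1.04 with length and lie at -1.26 where the 3′ end is fully covered.

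Processed pseudogenes, which are intronless copies of spliced mRNAs and many of them copies of ribosomal protein genes, were high in TRAP RNA. Of 301 tested, 213 were higher and 39 lower, with a median of 3.77. Of the 40 genes with the largest difference toward TRAP RNA, 16 were pseudogenes. These 40 were taken from called genes with a mean log2 CPM of 3 or more and no overlap of the groups. The share of counts from processed pseudogenes was 0.103% to 0.118% in total RNA libraries and 0.411% to 0.609% in TRAP libraries. This difference had the same direction as that of the ribosomal protein genes. Reads of near-identical copies can be assigned to either, so values of genes with such copies are uncertain. Small nucleolar RNAs were lower in 6 of 7 and mitochondrial transfer RNAs in 11 of 12.

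Of control hearts after sham surgery, 3 further TRAP libraries were available. Their shares of counts from the mitochondrial genome were 0.202% to 0.308%, from ribosomal protein genes 4.63% to 5.89%, from sarcomere genes 16.2% to 18.6% and from nuclear oxidative phosphorylation 11.2% to 12.2%. The corresponding shares in infarcted control TRAP libraries were 0.203% to 0.342%, 4.37% to 5.50%, 18.3% to 19.1% and 11.4% to 11.9%. For these 4 sets the ranges overlapped between sham and infarct and lay apart from total RNA. Nuclear long noncoding RNAs took 0.0166% to 0.0238% after sham surgery, above the infarcted TRAP libraries and far below total RNA. Sham TRAP library 2 held 567 counts of Y-linked genes, and the infarcted control libraries 1 to 7 each. That list includes Xist, and the part of sex in the sham and infarct values was not tested.

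The same comparison in Salv cKO hearts used other libraries, 3 TRAP and 3 total RNA, and gave 8003 genes called (60.3%). Of the 8923 genes called in control hearts 8742 (98%) had the same sign in Salv cKO. Both comparisons called 7161 genes in the same direction, 80.3% of the control calls and 89.5% of the Salv cKO calls, and 12 in opposite directions. Most differences were smaller in Salv cKO, over genes that were selected on their control values. The median size was 1.69 in control and 1.33 in Salv cKO, and 6850 of the 8742 same-sign genes were smaller in Salv cKO. Across genes the correlation was 0.90 (Pearson) and 0.92 (Spearman), with genes not independent. Ribosomal protein genes had medians of 3.40 and 2.38, nuclear oxidative phosphorylation 2.41 and 1.75, sarcomere genes 0.98 and 0.52, and the mitochondrial genome -5.87 and -5.71. The test of the difference between genotypes called 57 genes (0.43%), and 1964 had an unadjusted p under 0.05. Leaving out single control libraries gave 16 to 140 calls (16, 30 and 140 without total RNA libraries 1, 2 and 3, and 21, 17 and 17 without TRAP libraries 1, 2 and 3), and each of the 6 control libraries moved the number by more than 1.5 times.

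Rpl29, a protein of the large ribosomal subunit, differed most firmly between genotypes. It was at 17.8, 15.01 and 17.7 CPM in total RNA and 129, 150.5 and 245 in TRAP RNA of control hearts, and at 28.3, 23.03 and 12.01 in total RNA and 2.90, 2.67 and 1.84 in TRAP RNA of Salv cKO hearts. TRAP RNA was above total RNA in control and below it in Salv cKO, a difference of -6.43 (SE 0.44, adjusted p = 4.72e-08). Dvl3, a transducer of Wnt signals, was at 11.6, 12.4 and 13.03 CPM in total RNA and 1.95, 0.807 and 0.645 in TRAP RNA of control hearts. In Salv cKO hearts it was at 11.8, 15.9 and 8.13 in total RNA and 37.95, 23.6 and 25.3 in TRAP RNA, a difference of 4.69 (SE 0.49, adjusted p = 8.22e-06). Rpl29, Dvl3, Eef1a1 and Rpl15 were picked after their values were seen. Hba-a1, an alpha globin gene, was at 2.96 in control and -0.75 in Salv cKO, and mt-Nd3 at -2.38 and 2.27. Both have near-identical copies, and with the length and GC trends removed the control values were 0.46 for Hba-a1 (adjusted p = 0.38) and -0.33 for mt-Nd3 (adjusted p = 0.715). mt-Nd3 was at 0.977, 0 and 0.430 CPM in control TRAP RNA, and summed with its copy its control value was -6.14. The difference between genotypes was not tested on summed counts.

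**Figure D5:**
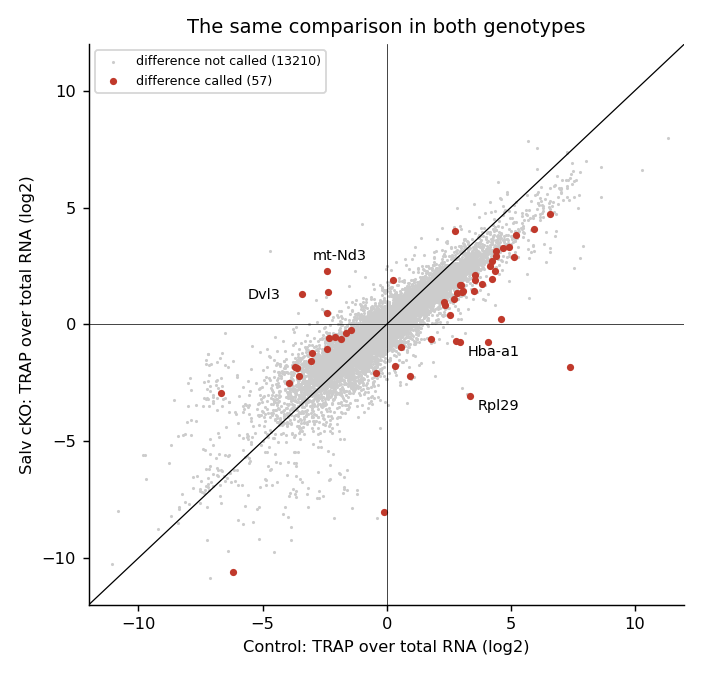
Log2 fold change of TRAP over total RNA in control hearts (horizontal axis) and Salv cKO hearts (vertical axis) for each gene tested, with the 57 genes whose difference between genotypes was called in red and the line of equality. Of the 8742 control-called genes with the same sign, 6850 lie nearer to 0 in Salv cKO, and Rpl29 lies at 3.37 in control and -3.06 in Salv cKO.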

How the data were processed

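The authors deposited whole-number read counts per gene symbol for 18 mouse heart libraries. Reads were aligned with STAR 2.5 to mm10, and DESeq2 was used, per the submitters' processing notes. The counter, its annotation and its strandedness were not given in the sources used here. The 18 single-library tables held the same values as the series table. Groups were taken from the labels. Counts of the 12 libraries from infarcted hearts, in 4 groups, were scaled by TMM, filtered with filterByExpr and fitted with edgeR 4.0.16 (robust quasi-likelihood, Benjamini-Hochberg adjustment over 13267 genes, threshold 0.05). CPM were computed from these counts. Lengths, GC content and exon overlaps came from GENCODE M21, and near-identical copies (at least 95% identity over 200 bases) from minimap2 2.31. Length and GC trends were removed by a loess fit (span 0.3) in each library, and genes without an annotated transcript left that fit. On data simulated for this comparison (12746 genes), 51% of 2-fold and 87% of 4-fold changes were recovered, and 1.43% of calls were false. The simulation changed 100 genes by 2-fold and 100 by 4-fold, equally up and down, and no others. Most genes differ in the real data, so it does not measure false calls or the scaling there. A gene was named if it was one of 80 set genes, among the 15 largest differences each way with a mean log2 CPM of 3 or more and no overlap (predicted genes, pseudogenes and structural RNAs left out), or among the highest and lowest members of a list. A few genes that this rule names are not reported here. Atp5b, Mb and Slc25a4 were added for their abundance. Members and lists were chosen with earlier results of these data known. Depths and floors are given with the results. Other scalings, filters, tools, equal depth, summed copies, a replicate block and left-out libraries were tried. Same-numbered libraries did not deviate together, so the numbers were not used to pair them.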

Additional observations from a re-analysis of the deposited data

Results flagged for a closer look

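For 7 genes named here, the test of the TRAP difference in Salv cKO hearts minus that in control hearts passed the threshold (edgeR quasi-likelihood test, adjusted over 13267 genes). Of all genes tested, 57 (0.43%) passed it. Rpl29 and Dvl3 were picked after their values were seen, so their place among the 7 is no separate support. The difference was -6.43 for Rpl29 (adjusted p = 4.72e-08), 4.69 for Dvl3 (adjusted p = 8.22e-06), 4.66 for mt-Nd3 (adjusted p = 0.0107) and -3.72 for Hba-a1 (adjusted p = 0.0233), and their signs were opposite in the genotypes. The control value of mt-Nd3 rests on 0.977, 0 and 0.430 CPM in TRAP RNA, and was -6.14 when summed with its near-identical copy and -0.33 (not called) with length and GC trends removed. That of Hba-a1 was 0.46 (not called) with the trends removed. It was -1.88 for Scand1 (adjusted p = 0.0393), -1.66 for Mt2 (adjusted p = 0.0109) and -1.42 for Rps10 (adjusted p = 0.0463), which were higher in TRAP RNA of both genotypes.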

How the results depend on the processing

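Under 9 other settings the control comparison called 7580 (length and GC trends removed, 12815 tested) to 9838 genes (no filter, 30307 tested). It called 8364 to 8695 with a library left out, and 5137 when tested against a 2-fold change (13267 tested). The mitochondrial share differed by -21.8 to -28.5 percentage points with a library left out. With the replicate number as a block 8325 genes were called. Deviations of same-numbered total and TRAP libraries correlated at 0.003, -0.044 and -0.044, so no pairing by number was seen. Among libraries of unlike number the highest value was 0.050, for total RNA library 3 with TRAP library 2. The count of genes differing between genotypes moved from 57 to 302 without a filter, 262 with DESeq2 and 19 with length and GC trends removed, and to 16 to 140 with a control library left out; the cause was not tested. Of 176 genes named, 119 kept their call, and their direction where called, in each alternative run for them. Turns of sign without a call in either fit were not counted, as for Rpl10 (0.03) and Rpl23a (0.0022) summed with copies. In at least 1 alternative, 12 turned sign with a call in that fit or the main fit. With trends removed these were Cd68 (-0.94), Ddit3 (-0.24), Ftl1 (-0.98), Gas5 (-0.47), Hbb-bs (-1.64), Pln (0.73), Rpl10a (-0.75), Rpl15 (0.55), Tra2b (0.80) and Tyrobp (-0.046). With library totals they were Pkp2 (-0.0084) and Ryr2 (-0.49). The block lost the calls of Actc1 (-0.52), Pln (-0.56) and Pttg1 (5.4) and gained those of Ctgf (-1.36) and Ighm (-0.91). Settings for the Salv cKO and between-genotype counts and the summing of copies were chosen after seeing the data. In the smallest of the infarcted control TRAP libraries, of 5916285 counts, genes near the floor of 3 counts are poorly measured.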
